A study of Homo sapiens with 12 samples.

Results

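The genes described here are 10 amino acid transporters: SLC7A11, SLC7A5, SLC7A1, SLC3A2, SLC1A4, SLC1A5, SLC38A1, SLC38A2, SLC6A9 and SLC43A1. They were taken by gene symbol from the count tables of 2 RNA-Seq experiments in human prostate cancer cells. All 10 were found in both tables, among 28008 genes listed for the silencing experiment and 25435 listed for the overexpression experiment. All 10 also passed the filter on low counts in both, among 14683 and 13836 genes tested.

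Amino acids cross the plasma membrane through carriers of the solute carrier (SLC) families. The SLC7 light chains SLC7A11 (xCT) and SLC7A5 (LAT1) work as heterodimers with the heavy chain SLC3A2 (CD98hc, 4F2hc), which brings them to the cell surface. xCT exchanges extracellular cystine for glutamate and so feeds glutathione synthesis, whereas LAT1 exchanges large neutral amino acids such as leucine. SLC7A1 (CAT1) carries arginine and lysine, and SLC43A1 (LAT3) carries large neutral amino acids without a heavy chain. SLC1A4 (ASCT1) and SLC1A5 (ASCT2) exchange small neutral amino acids, with glutamine a main substrate of ASCT2. SLC38A1 (SNAT1) and SLC38A2 (SNAT2) take up glutamine and alanine with sodium, and SLC6A9 (GlyT1) takes up glycine. Several of these genes are known targets of ATF4, the transcription factor whose translation rises when amino acids run short, and NRF2 (NFE2L2) is a known regulator of SLC7A11. In prostate cancer cells LAT1, LAT3 and ASCT2 are known as the main routes for leucine and glutamine.

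The silencing experiment used LNCaP-ER/tet-MUC1shRNA cells. LNCaP is a human prostate cancer cell line, and LNCaP-ER cells were derived from it by selection for resistance to the drug enzalutamide. These cells carry a doxycycline (DOX)-inducible MUC1 shRNA, and 3 libraries came from cells given vehicle (0.1% DMSO) and 3 from cells given DOX (500 ng/mL). The DOX exposure of the sequenced cells lasted 7 days. The overexpression experiment set 3 libraries of LNCaP cells beside 3 of LNCaP/MUC1-C OE cells, which express exogenous MUC1-C, the C-terminal transmembrane subunit of the MUC1 protein, from a vector named for its CMV promoter. The labels give the treatment of these OE samples as tetMUC1-C, and their titles read LNCaP shMUC1-C OE. No source used here explains the letters sh in those titles or says whether the OE cells received DOX. The labels call the LNCaP controls wild-type and the count table calls the same columns vector, so the presence of an empty vector is unsettled. All 4 groups derive from LNCaP, neither line is described as a single clone, and the cells were cultured in triplicate, so p-values measure the spread between cultures of 1 line.

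Libraries held 28045894 to 45807989 counts in the silencing experiment and 13806856 to 19208944 in the overexpression experiment. MUC1 had 26, 10 and 13 counts in the vehicle libraries and 3, 42 and 8 in the libraries labelled DOX, so replicate 2 of the latter went against its label (log2 fold change 0.12, edgeR adjusted p = 0.935, and -1.83 without it, adjusted p = 0.0617), and those 3 libraries are called "labelled DOX" below. The same replicate stood apart in its share of listed genes with 0 counts, 11.2% against 27.9% to 38.1% in the other 5 libraries. In the OE libraries MUC1 had 9168 to 12622 counts against 25 to 31 in LNCaP. Of 10 luminal prostate markers, all had at least 10 counts in every LNCaP-ER library, whereas 6 did in all libraries of the overexpression experiment. Their summed level there was 393 to 407 CPM in LNCaP and 104 to 115 CPM in OE. KLK3, KLK2 and FOLH1 had at least 30 counts in every LNCaP library and 0 in all OE libraries. The whole-list level of 4 basal markers stayed at or under 3.07 CPM in all 12 libraries and that of 8 stromal and immune markers at or under 48.5 CPM. The sum of 7 neuroendocrine markers was 3.88 to 25.7 CPM in LNCaP-ER libraries and 114 to 155 CPM in the overexpression experiment. The part of these differences in the results below was not tested.

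Promoter sequence was available from RefSeq (GRCh38.p14, 250 bases before to 50 after each start) as 16 windows for 9 of the 10 genes. SLC7A11 had no entry. The windows below hold letters of the elements through which ATF4, NRF2 and MYC are known to act, and are shown because those factors were also measured. TGATGCAA, the letters of a C/EBP-ATF response element, was found in windows of SLC1A4 and SLC1A5 and in 0.866% of all 35116 windows. CACGTG, the E-box, was found in SLC1A5, SLC43A1 and SLC7A5 and in 7.26% of all windows. TGACNNNGC, the core of an antioxidant response element, was found in SLC1A5, SLC3A2, SLC7A1 and SLC7A5 and in 13.3% of all windows. The looser TGATGNAA, which includes every TGATGCAA, was found in SLC1A4, SLC1A5, SLC38A1, SLC3A2 and SLC7A1 and in 3.62% of all windows. By window, matches were in 2 (TGATGCAA), 3 (CACGTG), 4 (TGACNNNGC) and 5 (TGATGNAA) of the 16. In SLC1A5 the TGATGCAA lies in another window (chr19:46784765-46785064) than the CACGTG (chr19:46787244-46787543). Both strands were searched, and a match describes letters only, not a bound site. Each sequence is written 5′ to 3′ on the gene's strand with the matched letters in capitals, and in SLC1A4 the match reads on the opposite strand.
SLC1A4, chr2:64989372-64989419, plus strand: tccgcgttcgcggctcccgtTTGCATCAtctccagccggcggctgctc
SLC1A5, chr19:46784884-46784931, minus strand: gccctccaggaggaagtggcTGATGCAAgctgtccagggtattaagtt
SLC7A5, chr16:87869612-87869657, minus strand: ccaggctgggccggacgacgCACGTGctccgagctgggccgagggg
SLC1A5, chr19:46787318-46787363, minus strand: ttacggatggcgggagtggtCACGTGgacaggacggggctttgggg
SLC43A1, chr11:57515789-57515834, minus strand: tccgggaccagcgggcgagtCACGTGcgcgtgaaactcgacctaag
SLC3A2, chr11:62881642-62881690, plus strand: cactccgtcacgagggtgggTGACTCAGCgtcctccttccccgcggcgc
SLC7A1, chr13:29595745-29595793, minus strand: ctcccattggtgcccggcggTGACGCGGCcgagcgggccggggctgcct

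Levels below are CPM, counts scaled to library size after TMM normalization, and differences are log2 fold changes fitted with edgeR. In the silencing experiment 7 of the 10 transporters were lower in the libraries labelled DOX and 0 were higher at an edgeR adjusted p under 0.05. The 7 were SLC7A11, SLC7A5, SLC1A4, SLC1A5, SLC38A1, SLC38A2 and SLC43A1, and SLC38A1 alone of these turned to a higher value when the deposited TPM was used in place of counts (0.093, log2). Among all genes tested 14.5% were lower and 12.8% higher. Of the called genes 46.8% were higher, a share that was 59.6% when libraries were scaled by size alone and 95.2% on the TPM scale, where the median of all genes was shifted by 0.45. TPM changes below are not set relative to that median unless stated. The median log2 fold change of the 10 was -0.96, beside -0.02 over all genes tested. For 5 of the 10 every library labelled DOX lay below every vehicle library, as it did for 23.0% of all genes tested, and for 0 every one lay above, as it did for 21.2%. Within the groups the libraries were not alike: vehicle replicate 1 was the lowest vehicle library for all 10 genes, and replicate 2 of the libraries labelled DOX was the highest of its group for 9 of them. Leaving out either of these gave 9 genes lower, adding SLC7A1 and SLC6A9. Leaving out vehicle replicate 2, vehicle replicate 3 or labelled DOX replicate 3 gave 3 genes, and leaving out labelled DOX replicate 1 gave 5. SLC7A11, SLC7A5 and SLC1A5 were the 3 genes called in every one of these fits, although SLC1A5 was not called on the deposited TPM scale.

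In the overexpression experiment 9 of the 10 transporters were higher in LNCaP/MUC1-C OE cells and 0 were lower, by the same test. Among all genes tested 33.2% were higher and 34.1% lower. Of the called genes 49.4% were higher, and 32.3% when libraries were scaled by size alone, a scaling that moved the all-gene median by -0.16. The median log2 fold change of the 10 was 1.09, beside -0.01 over all genes tested. For the same 9 genes every OE library lay above every LNCaP library, as it did for 34.4% of all genes tested (in 35.9% every OE library lay below), and the exception was SLC1A4. Leaving out any of the 6 libraries kept all 9 calls. OE replicate 1 was the highest OE library for 9 of the 10 genes, the exception being SLC38A2, and its part in each size is given beside the genes below.

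**Figure D1:**
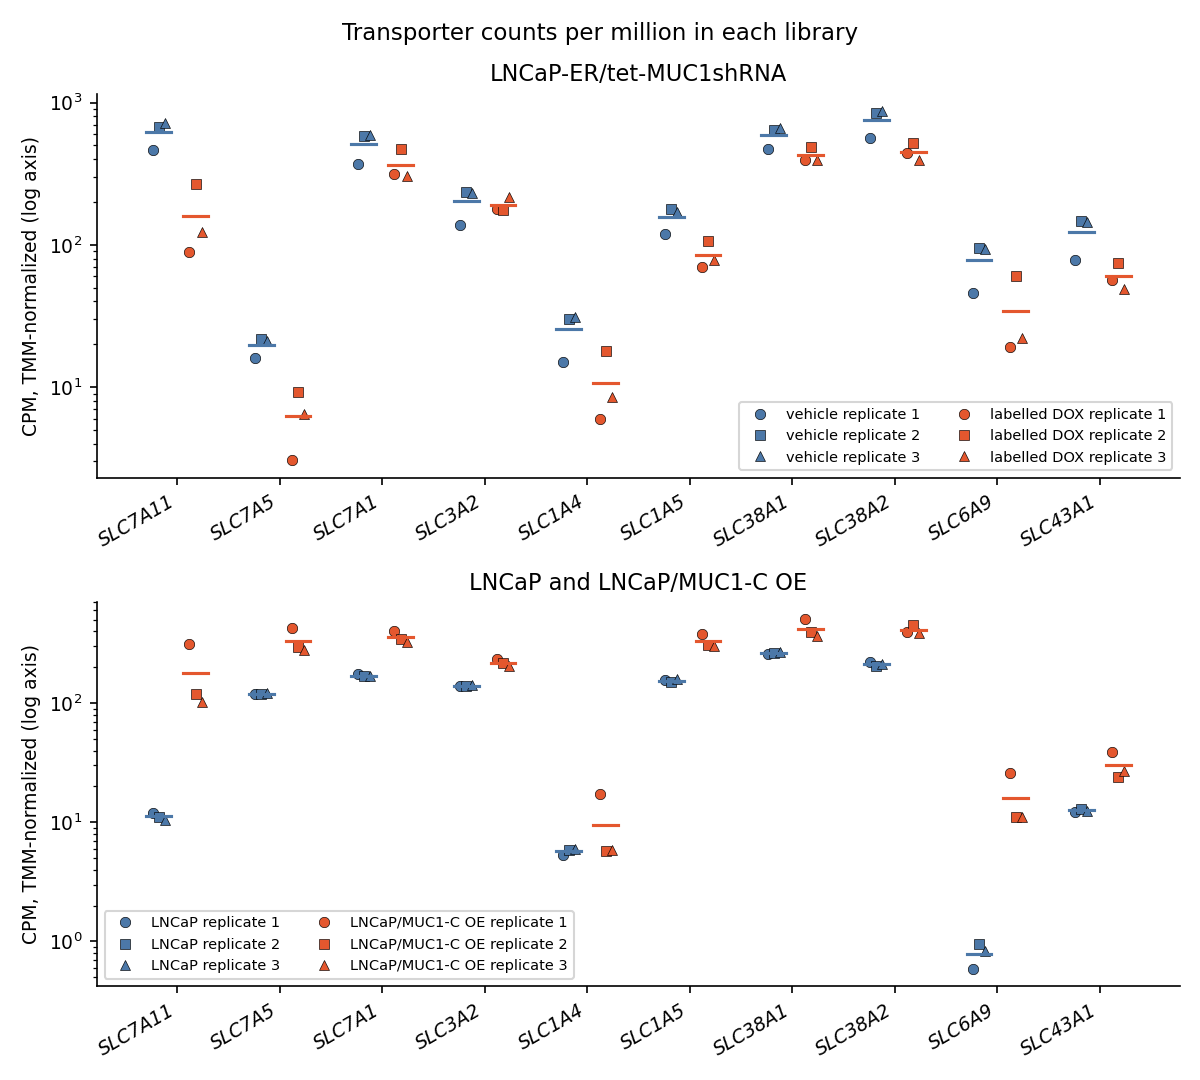
CPM (counts scaled to library size, TMM-normalized, log axis) of the 10 transporters, by library, for silencing (upper panel) and overexpression (lower panel); marker shapes are replicates and horizontal bars are group means, n = 3. Vehicle replicate 1 is the lowest vehicle library for all 10 genes, and OE replicate 1 is the highest OE library for 9 of 10.

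**Figure D2:**
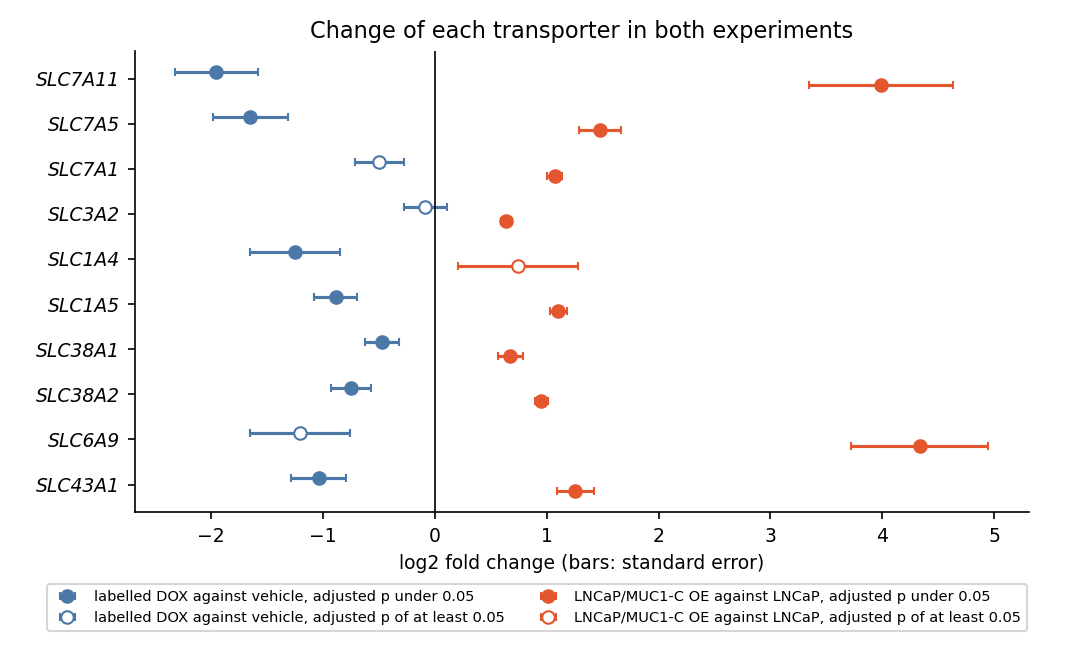
Fitted log2 fold change of each transporter, labelled DOX against vehicle (blue) and LNCaP/MUC1-C OE against LNCaP (red), with the standard error as bars and filled points for edgeR adjusted p under 0.05. The blue points are filled for 7 genes, all below 0 (SLC38A1 turned to 0.093 on the deposited TPM scale), and the red points for 9, all above 0.

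SLC7A11 (chr4:138164097-138242349, minus strand, GRCh38, GENCODE 29) had the largest fall of the 10 in the silencing experiment. It had 462, 674 and 718 CPM in vehicle replicates 1 to 3 and 89.2, 267 and 122 CPM in the libraries labelled DOX. The groups did not overlap, and replicate 2 was the highest library labelled DOX. The mean fell from 618 ± 137 to 159.6 ± 94.7 CPM (SD, n = 3). This was a change of -1.95 (log2, SE 0.37, edgeR adjusted p = 0.00613), or 3.87-fold lower. Without labelled DOX replicate 2 it was -2.51, and it lost its call when no low-count filter was applied (adjusted p = 0.0779). In LNCaP cells SLC7A11 was a low-level gene with 11.97, 11.1 and 10.5 CPM, and the OE libraries had 312, 119 and 103 CPM. Every OE library lay far above every LNCaP library, and replicate 1 lay well above the other two. The change was 3.99 (log2, SE 0.65, edgeR adjusted p = 0.00551), or 15.9-fold higher, the 32nd highest of the 13836 genes tested, and without OE replicate 1 it was 3.30. The antisense gene SLC7A11-AS1 overlaps it on the other strand and had at most 10 counts in any library.

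SLC7A5 (chr16:87830023-87869488, minus strand), the LAT1 light chain, had 16.1, 21.8 and 21.1 CPM in vehicle and 3.06, 9.26 and 6.51 CPM in the libraries labelled DOX. All 3 libraries labelled DOX lay below the vehicle libraries, and replicate 1 was the lowest. SLC7A5 thus changed by -1.65 (log2, SE 0.33, edgeR adjusted p = 0.00809), or 3.14-fold lower, and by -0.73 on log2(TPM + 1) (limma adjusted p = 0.00588). Its counts may be split with a near-identical copy, since the pseudogene SLC7A5P2 had 182 to 400 counts in these libraries and up to 252% of the SLC7A5 count. SLC7A5P2 itself had a log2 fold change of -0.33 (edgeR adjusted p = 0.315). In LNCaP cells SLC7A5 had 120.3, 118 and 121 CPM, and in OE cells 426, 294 and 281 CPM. It was higher in all 3 OE libraries, with a log2 fold change of 1.48 (SE 0.19, edgeR adjusted p = 0.00171), or 2.78-fold higher, and 1.26 without OE replicate 1. The pseudogene had at most 29 counts in that experiment.

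SLC3A2 (chr11:62856102-62888875, plus strand), the heavy chain that both light chains need, had 139, 237 and 230 CPM in vehicle and 178, 176 and 216 CPM in the libraries labelled DOX. Its groups overlapped, with a log2 fold change of -0.09 (SE 0.19, edgeR adjusted p = 0.774), whereas on the deposited TPM scale it was 0.50 higher (limma adjusted p = 0.0498) and 0.045 relative to the median of all genes. In LNCaP cells SLC3A2 had 139, 138 and 143 CPM, and in OE cells 232, 215 and 206 CPM. It was higher in all 3 OE libraries by a log2 fold change of 0.64 (SE 0.05, edgeR adjusted p = 5.64e-09), the smallest called change among the 10, and by 0.59 without OE replicate 1.

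The ratio of light to heavy chain counts within a library does not depend on the scaling between libraries. The log2 ratio of SLC7A5 to SLC3A2 was -3.10, -3.44 and -3.44 in vehicle and -5.86, -4.25 and -5.05 in the libraries labelled DOX, a difference of -1.72. The log2 ratio of SLC7A11 to SLC3A2 was 1.74, 1.51 and 1.64 in vehicle and -0.996, 0.60 and -0.82 in the libraries labelled DOX, a difference of -2.04. Both ratios were lower in every library labelled DOX than in any vehicle library. In the overexpression experiment the log2 ratio of SLC7A5 to SLC3A2 rose from -0.21, -0.22 and -0.24 in LNCaP to 0.88, 0.45 and 0.45 in OE, a difference of 0.81. The log2 ratio of SLC7A11 to SLC3A2 was -3.54, -3.63 and -3.76 in LNCaP and 0.43, -0.86 and -1.0004 in OE, a difference of 3.17. The groups did not overlap in any of the 4 comparisons, and each gave p = 0.1 by a two-sided exact permutation test, the smallest that 3 against 3 libraries allow.

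**Figure D3:**
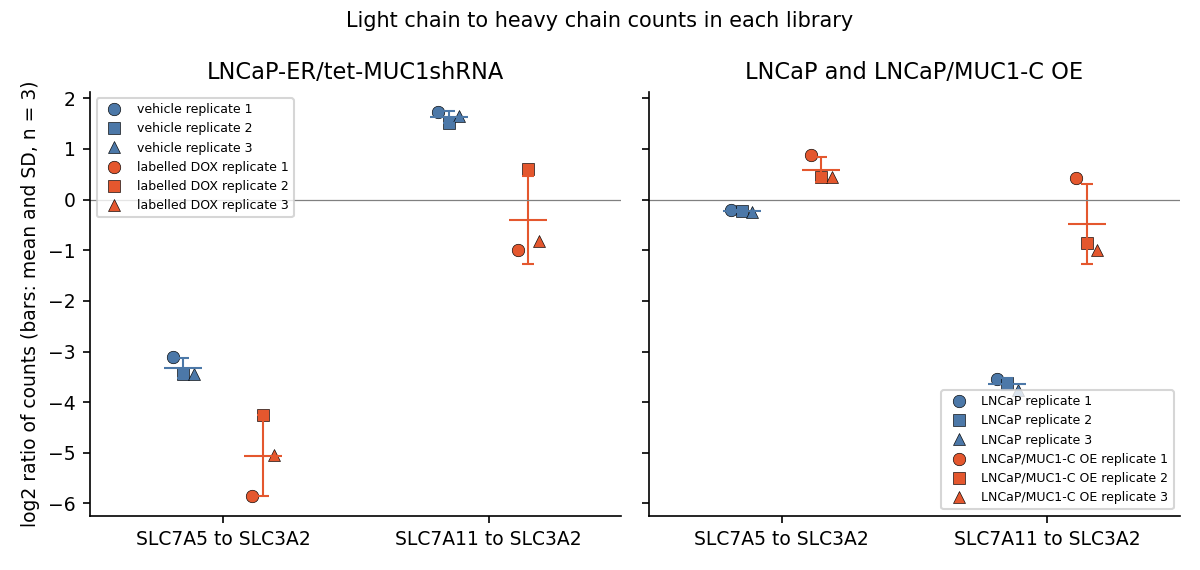
Log2 ratio of light chain (SLC7A5 or SLC7A11) to heavy chain (SLC3A2) counts, by library, for silencing (left) and overexpression (right); points are libraries and bars the mean and SD, n = 3. Both ratios lie lower in the libraries labelled DOX (differences of -1.72 and -2.04) and higher in OE (0.81 and 3.17).

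SLC1A5 (chr19:46774883-46788594, minus strand), the glutamine exchanger ASCT2, had 119, 179 and 171 CPM in vehicle and 69.3, 106 and 78.7 CPM in the libraries labelled DOX. The groups did not overlap. SLC1A5 changed by -0.89 (log2, SE 0.19, edgeR adjusted p = 0.0105), or 1.85-fold lower, and its adjusted p reached 0.0498 without labelled DOX replicate 3. On the deposited TPM scale the change was -0.32 and the call was lost (limma adjusted p = 0.213). In LNCaP cells it had 155, 149.9 and 158 CPM and in OE cells 381, 309 and 304 CPM. The OE libraries were higher by a log2 fold change of 1.10 (SE 0.08, edgeR adjusted p = 2.73e-08), or 2.15-fold, and by 0.99 without OE replicate 1.

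SLC1A4 (chr2:64988477-65023865, plus strand), the related exchanger ASCT1, was called in silencing but not in overexpression. It had 15.1, 30.2 and 31.3 CPM in vehicle and 5.94, 17.9 and 8.47 CPM in the libraries labelled DOX, so that labelled DOX replicate 2 lay above vehicle replicate 1. It changed by -1.25 (log2, SE 0.40, edgeR adjusted p = 0.0474), and the call was lost without vehicle replicate 2, vehicle replicate 3, labelled DOX replicate 1 or labelled DOX replicate 3 (adjusted p 0.116 to 0.159). It was also lost in edgeR with DESeq2's size factors (adjusted p = 0.0526), by library size alone (0.0669) and with no low-count filter (0.223). On log2(TPM + 1) the change was -0.50 and was not called (limma adjusted p = 0.0608). A full DESeq2 fit kept the call. In LNCaP cells it had 5.27, 5.86 and 6.03 CPM and in OE cells 17.1, 5.74 and 5.80 CPM. Only OE replicate 1 stood above the LNCaP libraries. The fitted difference was 0.74 (log2, SE 0.54, edgeR adjusted p = 0.285) and 0.015 without that library.

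SLC38A2 (chr12:46358189-46372867, minus strand), the sodium-coupled carrier SNAT2, had the highest level per length of the 10 in vehicle-treated LNCaP-ER. It had 565, 843 and 873 CPM in vehicle and 439, 523 and 396 CPM in the libraries labelled DOX, with no overlap. It changed by -0.75 (log2, SE 0.18, edgeR adjusted p = 0.0148), and the call was lost without vehicle replicate 2, vehicle replicate 3 or labelled DOX replicate 3 (adjusted p 0.0581 to 0.0687). On the deposited TPM scale the change was -0.17 and was not called (limma adjusted p = 0.523). In LNCaP cells SLC38A2 had 219, 206 and 214 CPM and in OE cells 395, 453 and 389 CPM. All OE libraries were higher, by a log2 fold change of 0.95 (SE 0.06, edgeR adjusted p = 1.14e-10), and here OE replicate 2, not replicate 1, was the highest.

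SLC38A1 (chr12:46183063-46270017, minus strand), which encodes SNAT1 and lies beside SLC38A2, had 469, 638 and 665 CPM in vehicle and 398, 486 and 393 CPM in the libraries labelled DOX. Labelled DOX replicate 2 lay above vehicle replicate 1. SLC38A1 changed by -0.47 (log2, SE 0.15, edgeR adjusted p = 0.0452). It was 0.093 on the deposited TPM scale. The edgeR call was lost with DESeq2's size factors (adjusted p = 0.0530) and by library size alone (0.0777), although a full DESeq2 fit kept it. It was also lost without vehicle replicate 2, vehicle replicate 3, labelled DOX replicate 1 or labelled DOX replicate 3 (adjusted p 0.122 to 0.160). In LNCaP cells it had 260.3, 263 and 266 CPM and in OE cells 503, 392 and 366 CPM. It was higher in all 3 OE libraries by a log2 fold change of 0.67 (SE 0.11, edgeR adjusted p = 0.00126), and by 0.52 without OE replicate 1.

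SLC7A1 (chr13:29509410-29595688, minus strand), the arginine and lysine carrier CAT1, did not pass the test in silencing. It had 368, 580.2 and 596 CPM in vehicle and 316, 474 and 306 CPM in the libraries labelled DOX. Labelled DOX replicate 2 again lay within the vehicle range. The fitted difference was -0.50 (log2, SE 0.22, edgeR adjusted p = 0.124). It was -0.70 without labelled DOX replicate 2 (adjusted p = 0.0266) and -0.69 without vehicle replicate 1 (adjusted p = 0.0353), but 0.065 on the deposited TPM scale. The median of all genes was 0.45 on that scale. In LNCaP cells SLC7A1 had 174, 169 and 169 CPM and in OE cells 404, 343 and 327 CPM. It was higher in OE by a log2 fold change of 1.07 (SE 0.07, edgeR adjusted p = 1.38e-09), or 2.10-fold, and by 0.97 without OE replicate 1.

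SLC6A9 (chr1:43991500-44031467, minus strand), the glycine transporter GlyT1, had 45.7, 95.3 and 93.9 CPM in vehicle and 19.2, 60.8 and 22.1 CPM in the libraries labelled DOX. Labelled DOX replicates 1 and 3 lay below all vehicle libraries and replicate 2 did not. The fitted difference was -1.21 (log2, SE 0.45, edgeR adjusted p = 0.0764). It was -1.89 without labelled DOX replicate 2 (adjusted p = 0.00244) and -1.49 without vehicle replicate 1 (adjusted p = 0.0489). In LNCaP cells it was close to the detection limit, with 12, 18 and 16 counts, and the OE libraries had 380, 146 and 187 counts. In CPM these were 0.59, 0.95 and 0.83 against 25.7, 11.2 and 11.2. The log2 fold change of 4.34 (SE 0.61, edgeR adjusted p = 0.00219), or 20.2-fold, was the 25th highest of all genes tested and was 3.82 without OE replicate 1. CCDC24, on the other strand, overlaps SLC6A9 and had up to 42.6% of its count in silencing and up to 350% in overexpression. CCDC24 moved the other way in the OE libraries, with a log2 fold change of -1.26 (edgeR adjusted p = 0.000858).

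SLC43A1 (chr11:57484534-57515786, minus strand), the large neutral amino acid carrier LAT3, had 77.9, 148 and 145 CPM in vehicle and 56.4, 75.1 and 49.3 CPM in the libraries labelled DOX. The groups did not overlap, although labelled DOX replicate 2 and vehicle replicate 1 were close. SLC43A1 changed by -1.04 (log2, SE 0.25, edgeR adjusted p = 0.0149), or 2.05-fold lower, and the call was lost without vehicle replicate 2, vehicle replicate 3 or labelled DOX replicate 3 (adjusted p 0.0572 to 0.0675). It was also lost with no low-count filter (adjusted p = 0.0757) and on the deposited TPM scale, where the change was -0.43 (limma adjusted p = 0.0908). In LNCaP cells it had 12.3, 12.99 and 12.5 CPM and in OE cells 39.1, 24.2 and 26.7 CPM. All OE libraries were higher, by a log2 fold change of 1.25 (SE 0.17, edgeR adjusted p = 9.68e-05), and by 1.02 without OE replicate 1.

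Levels between genes were compared in TPM, which scales counts by gene length and library size. In vehicle-treated LNCaP-ER cells SLC38A2 was highest at 97.2 ± 11.4 TPM (SD, n = 3). SLC3A2, SLC7A1, SLC7A11, SLC38A1, SLC1A5 and SLC43A1 followed with means from 45.2 down to 30.7 TPM, and each neighbour in that order overlapped the next. SLC6A9 (13.2 ± 3.63 TPM) stood below them, and SLC1A4 (3.30 ± 0.86 TPM) and SLC7A5 (2.73 ± 0.23 TPM) were lowest and did not differ beyond their spread. In LNCaP cells the order was another. SLC3A2 (125 ± 3.04 TPM) and SLC1A5 (123 ± 4.41 TPM) overlapped at the top, followed by SLC38A2 (108 ± 4.58 TPM). SLC7A5 (65.5 ± 1.32 TPM) and SLC38A1 (63.4 ± 0.89 TPM) overlapped, and SLC7A1 (56.3 ± 1.42 TPM) and SLC43A1 (12.5 ± 0.22 TPM) came next. SLC1A4 (2.97 ± 0.19 TPM) and SLC7A11 (2.79 ± 0.20 TPM) overlapped near the bottom, above SLC6A9 (0.54 ± 0.12 TPM).

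SLC7A11 and SLC7A5 thus held very different places in the 2 control groups: SLC7A11 was the fourth and SLC7A5 the last of 10 in vehicle-treated LNCaP-ER, and they were the ninth and the fourth in LNCaP. The tables were processed apart, so no test was made between them. In vehicle the pseudogene SLC7A5P2 had 400, 236 and 182 counts beside 606, 641 and 595 for SLC7A5. In LNCaP it had 20, 17 and 21 beside 2442, 2242 and 2324. The part of read assignment in the place of SLC7A5 was not tested. RN7SK, a non-coding RNA, took 35.2% to 37.7% of all TPM in vehicle and 24.6% to 31.4% in the libraries labelled DOX and was not in the overexpression table, so absolute TPM cannot be set against each other across tables. With OE, SLC7A11 rose to 38.5 ± 24.8 TPM and the seventh place, and SLC1A5 (231 ± 27.9 TPM) led the order. In the libraries labelled DOX SLC7A11 was at 16.2 ± 12.7 TPM, also the seventh, and overlapped its neighbours SLC43A1 and SLC6A9.

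**Figure D4:**
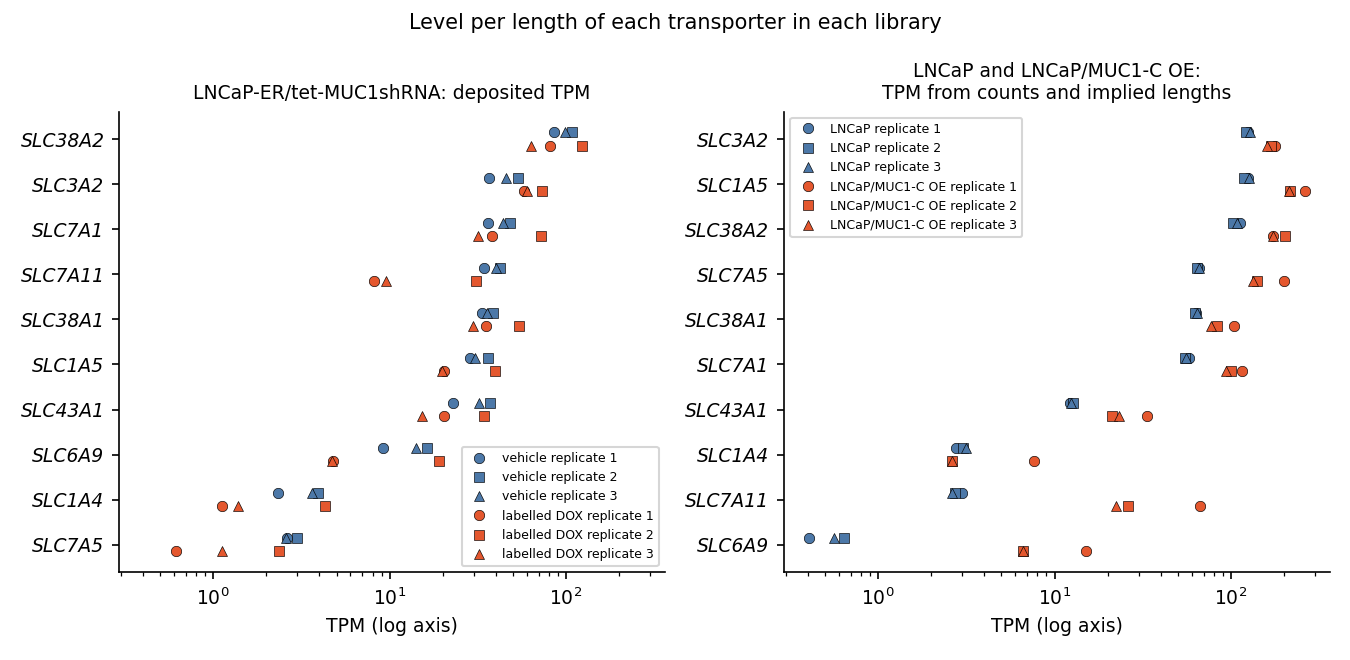
TPM (log axis) of each transporter in each library, ordered by the mean of the control group, for LNCaP-ER (left, deposited TPM) and for LNCaP and LNCaP/MUC1-C OE (right, computed from counts with the gene lengths implied by the silencing tables). SLC7A5 is last in vehicle-treated LNCaP-ER (2.73 TPM) and the fourth in LNCaP (65.5 TPM). Absolute TPM cannot be set against each other across the panels, since RN7SK takes part in the TPM of the left panel only. In LNCaP-ER its counts may be split with the pseudogene SLC7A5P2.

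The regulators were read from the same fits. ATF4 had 432, 654 and 653 CPM in vehicle and 189.9, 399 and 207 CPM in the libraries labelled DOX. It changed by -1.13 (log2, edgeR adjusted p = 0.0186), and the call was lost without vehicle replicate 2, vehicle replicate 3, labelled DOX replicate 1 or labelled DOX replicate 3 (adjusted p 0.0548 to 0.0797). The ATF4 call was also lost with no low-count filter (edgeR adjusted p = 0.106) and on unfiltered TPM (-0.62, limma adjusted p = 0.393). As for the transporters, vehicle replicate 1 was the lowest vehicle library and labelled DOX replicate 2 the highest of its group. In the overexpression experiment ATF4 had 449, 471 and 435 CPM in LNCaP and 926, 893 and 915 CPM in OE, a log2 fold change of 1.01 (edgeR adjusted p = 2.19e-12). OE replicate 1 did not stand apart for ATF4 as it did for SLC7A11.

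EIF2AK4 (GCN2), the kinase that senses uncharged tRNA, had a log2 fold change of -0.01 in silencing (edgeR adjusted p = 0.962). On log2(TPM + 1), where the median of all genes was 0.45, it was 0.53 (limma adjusted p = 0.0345). In overexpression it was -0.07 (edgeR adjusted p = 0.198), and -0.23 and called by library size alone. MYC, a transcription factor with E-box targets, changed by -0.59 in silencing (edgeR adjusted p = 0.0491, with overlapping groups), and its call was lost without any 1 library but vehicle replicate 1, with a replicate block (adjusted p = 0.0549), with DESeq2's size factors (0.0576), by library size alone (0.0633), with 10 counts in every library (0.0507) and on the TPM scale (log2 fold change 0.0031). In overexpression MYC changed by 0.16 (edgeR adjusted p = 0.0117), and by 0.0066 with scaling by library size alone (adjusted p = 0.918). NFE2L2 changed by -0.58 in silencing (edgeR adjusted p = 0.00501) and by 0.30 in overexpression (edgeR adjusted p = 0.000221). On the TPM scale, with the all-gene median at 0.45, its silencing change was -0.017. Of 16 regulators tested in silencing, 9 were lower and 1 was higher (fewer, 2 to 5 called in all, without vehicle replicate 2, vehicle replicate 3, labelled DOX replicate 1 or labelled DOX replicate 3), and of 17 tested in overexpression, 4 were lower and 7 higher. Among all genes tested 14.5% were lower and 12.8% higher in silencing, and 34.1% were lower and 33.2% higher in overexpression. BACH1, a repressor at antioxidant response elements, was lower in silencing with -0.88 (-0.27 and not called on log2(TPM + 1), limma adjusted p = 0.307), and CEBPB, which pairs with ATF4, was higher in OE with a log2 fold change of 1.01. From the same list ATF3 was also higher in OE (1.30), whereas ATF5 was lower (-0.35, edgeR adjusted p = 0.00336). DDIT3 (0.18, edgeR adjusted p = 0.408) and TRIB3 (-0.05, edgeR adjusted p = 0.704) were not called in OE. In silencing CEBPB (-1.24, edgeR adjusted p = 0.0354) and ATF5 (-0.35, edgeR adjusted p = 0.0333) were lower. DDIT3 (-1.63, edgeR adjusted p = 0.0909), TRIB3 (-1.49, edgeR adjusted p = 0.0599) and ATF3 (-0.39, edgeR adjusted p = 0.616) were not called there.

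Other amino acid transporters did not share 1 direction. Of 20 further transporters of the plasma membrane and endolysosomes tested in each experiment (of 39 listed), 4 were lower and 7 higher in silencing, and 9 were lower and 4 higher in overexpression. Without vehicle replicate 3 or labelled DOX replicate 3 the silencing count was 7 in all. Among all genes tested 14.5% were lower and 12.8% higher in silencing, and 34.1% were lower and 33.2% higher in overexpression. The median log2 fold change of the 20 further transporters was 0.39 in silencing and -0.15 in overexpression, beside -0.96 and 1.09 for the 10 genes. Both lists were chosen with earlier results of these data known, so this contrast is a description only. In silencing the cationic amino acid carrier SLC7A2 was lower with a log2 fold change of -1.56, the aromatic amino acid carrier SLC16A10 with -1.37 and the glutamate carrier SLC1A3 with -1.22. SLC7A2 (-0.31, edgeR adjusted p = 0.000116) and SLC16A10 (-0.26, edgeR adjusted p = 0.00475) were lower in OE too, whereas SLC1A3 was higher there. SLC43A2 (LAT4), the close relative of SLC43A1, went the opposite way from it in both experiments. Its log2 fold change was 1.18 in silencing (edgeR adjusted p = 0.00858) and -1.43 in overexpression (edgeR adjusted p = 2.38e-09). With no low-count filter the silencing calls of SLC43A2 (edgeR adjusted p = 0.0849) and SLC7A2 (0.0935) were lost. SLC7A3, a cationic carrier related to SLC7A1, had 186, 191 and 173 counts in LNCaP and 0, 0 and 2 in OE. SLC6A19, a neutral amino acid carrier, had 0 counts in all vehicle libraries and 31, 61 and 43 in the libraries labelled DOX. SLC6A15 (log2 fold change 0.71), SLC1A3 (0.95) and SLC38A3 (0.31, or 0.16 and not called by library size alone) were higher in OE.

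Transporters of mitochondria and lysosomes were called in both directions. In silencing 1 of 15 tested was lower and 5 were higher, and in overexpression 7 of 14 were lower and 3 higher. The lower and higher shares of all genes tested were 14.5% and 12.8% in silencing and 34.1% and 33.2% in overexpression. SFXN1, the mitochondrial serine carrier, was lower in both experiments, with log2 fold changes of -0.60 (-0.052 on the TPM scale, beside an all-gene median of 0.45) and -0.59. CTNS, which exports cystine from lysosomes, was lower in OE with -0.62, and SLC38A9, a lysosomal arginine sensor, was higher with 0.34.

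The mTORC1 amino acid sensing genes were called in both directions. In silencing 6 of 34 were lower and 6 higher, and in overexpression 9 were lower and 11 higher. The silencing count was 4 in all without vehicle replicate 2, vehicle replicate 3 or labelled DOX replicate 3. All genes tested were also called in both directions, 14.5% lower and 12.8% higher in silencing and 34.1% and 33.2% in overexpression. SESN3, a sestrin, was lower in silencing at 326 ± 41.4 against 889 ± 103 CPM (log2 fold change -1.45, edgeR adjusted p = 0.000420), and the arginine sensor CASTOR1 was higher (1.11). Both were lower in OE, SESN3 with -0.36 (edgeR adjusted p = 1.16e-05) and CASTOR1, under its older symbol GATSL3, with -0.80 (edgeR adjusted p = 0.00187). SESN2, the leucine sensor and a known ATF4 target, was higher in OE at 158.5 ± 8.77 against 49.3 ± 1.20 CPM (log2 fold change 1.68, edgeR adjusted p = 5.96e-14). It was not called in silencing (log2 fold change -0.47, edgeR adjusted p = 0.293).

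Genes that use cystine, glycine and glutamine were called in both directions too. In silencing 1 of 18 was lower and 2 were higher: ASNS (asparagine synthetase) was lower with -1.08 (-0.41 and not called on log2(TPM + 1), limma adjusted p = 0.128), and the glutathione genes GSS (0.38) and GPX1 (0.54) were higher. The count was 0 without vehicle replicate 3 or labelled DOX replicate 3, and 7 without labelled DOX replicate 2. In overexpression 3 of 17 were lower and 9 higher. The lower and higher shares of all genes tested were 14.5% and 12.8% in silencing and 34.1% and 33.2% in overexpression. CHAC1, which degrades glutathione, rose from 1.35 ± 0.29 to 11.5 ± 3.20 CPM (log2 fold change 3.08, edgeR adjusted p = 2.34e-08). CBS, of the transsulfuration route to cysteine, was higher with 1.55, and GPX4, the glutathione peroxidase that acts on lipid peroxides, with 0.96. GOT2 and GSR were lower with -0.47 each. ASNS was higher in OE at 416 ± 270 against 71.2 ± 4.28 CPM (log2 fold change 2.55, edgeR adjusted p = 0.0144). GPX1 was lower in OE (-0.19, edgeR adjusted p = 0.00475) and GSS was not called (-0.08, edgeR adjusted p = 0.240).

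**Figure D5:**
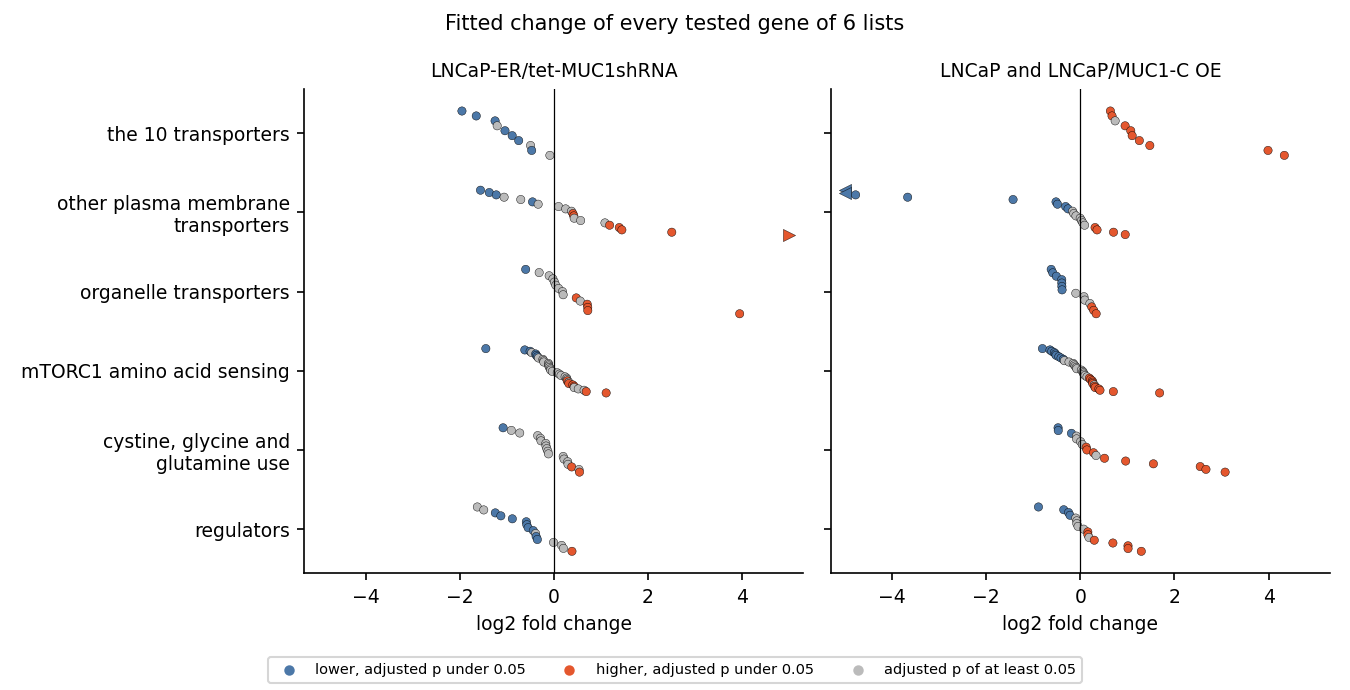
Fitted log2 fold change of every tested gene in 6 lists (the 10 transporters, other plasma membrane transporters, organelle transporters, mTORC1 amino acid sensing, cystine, glycine and glutamine use, and regulators), labelled DOX against vehicle (left) and OE against LNCaP (right); colours mark edgeR adjusted p under 0.05 and triangles mark values beyond the axis. The 10 transporters lie to 1 side in each panel, with SLC7A1, SLC3A2 and SLC38A1 turning sign on the deposited TPM scale in silencing, and the other transporter list lies on both sides of 0. The median of all genes was 0.45 on log2(TPM + 1). The lists were chosen with earlier results of these data known.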

How the data were processed

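RNA was sequenced as stranded mRNA libraries, and per the labels the submitters' processing notes name STAR, DESeq2 and GRCh38/hg38; the counter, annotation and strand setting are not given in the sources used here. The authors deposited raw gene counts for both experiments and, for the silencing experiment, TPM. Each experiment's 6 libraries were fitted alone with edgeR 4.0.16 (R 4.3.3; filterByExpr, TMM, robust quasi-likelihood test, Benjamini-Hochberg adjustment over all genes tested, threshold 0.05). Values are TMM-normalized CPM. TPM for LNCaP and OE was computed from counts with the lengths implied by the silencing counts and TPM, for 20512 genes that hold at least 96.9% of counts. Gene positions are from GENCODE 29. Of the overexpression table, 12 columns of other cell lines were not used. The scripts were tested on simulated data.

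The members, the context lists and the naming rule were chosen with earlier results of these data known. Named were all 10 members, MUC1, ATF4, EIF2AK4, MYC, NFE2L2, and, from each context list, genes among up to 3 with the smallest p per direction and experiment. KLK3, KLK2, FOLH1, CCDC24, RN7SK and the pseudogenes were named for the checks beside them. ATF3, DDIT3 and TRIB3 were named outside the rule, as regulators to set beside ATF4, ATF5 and CEBPB. Some values of other genes that the rule or the checks covered are not reported here, although counts over the lists include them. Alternatives were a full DESeq2 1.42.0 fit, and edgeR with DESeq2's size factors, library size only, no filter, a filter of 10 counts in every library, a replicate block, or each library left out. Others were limma 3.58.1 on log2(TPM + 1) or log2(TPM + 0.1), with at least 1 TPM in 3 libraries or no filter.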

Additional observations from a re-analysis of the deposited data

How the results depend on the processing

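In the overexpression experiment all 120 alternative member values kept their direction and side of the threshold, genes called ran from 8486 to 9512 when 1 library was left out, and 9 members were called throughout. Library size alone shifted the median of all genes there by -0.16. In the silencing experiment, of 150 member values, 99 kept both, 34 fell below the threshold, 6 passed it and 11 changed sign. A full DESeq2 fit called the same 7 members. In edgeR, members called went from 7 to 5 with DESeq2's size factors or library size alone (SLC1A4 and SLC38A1 lost) and to 4 with no filter on low counts. On TPM there were 3 on log2(TPM + 1) (2 lower, and SLC3A2 higher), 4 on log2(TPM + 0.1) (3 lower, and SLC3A2 higher) and 0 on unfiltered TPM. Members called ran from 3 to 9 with 1 library left out. Genes called went from 4006 to 1589 on unfiltered TPM and ran from 2002 to 5243 with 1 library left out. On TPM SLC7A1 turned to 0.065, SLC3A2 to 0.50 and SLC38A1 to 0.093 or 0.094; relative to the all-gene median (chosen after seeing the data) SLC3A2 was 0.045 and SLC38A1 -0.36. SLC3A2 ran from -0.30 to 0.038 with 1 library left out. Of the other named genes, on TPM (log2(TPM + 1) and unfiltered, then log2(TPM + 0.1)) EIF2AK4 turned to 0.53 and 0.55, MYC to 0.0031 and 0.0029, and SLC7A5P2 to 0.17 and 0.23. These are not relative to the all-gene median, which was 0.45 on log2(TPM + 1), 0.18 unfiltered and 0.52 on log2(TPM + 0.1). EIF2AK4 was also 0.0091 under DESeq2, 0.016 with its size factors, 0.067 by library size alone and 0.0056 with 10 counts in every library. With 1 library left out EIF2AK4 ran from -0.075 to 0.078, MUC1 in silencing from -1.83 to 0.62 and SLC7A5P2 in overexpression from -0.019 to 0.66. The causes were not tested.

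Context lists in silencing moved as follows. Plasma membrane transporters called went from 11 to 4 on unfiltered TPM (7 to 14 with 1 library left out). mTORC1 genes went from 12 to 7 with no filter and 5 on unfiltered TPM (4 to 12). Genes of cystine, glycine and glutamine use went from 3 to 6 under DESeq2, 6 by library size alone, and 7 on both filtered TPM settings (0 to 7). Regulators went from 10 to 6 with no filter, 6 on both filtered TPM settings and 0 on unfiltered TPM (2 to 12). Organelle transporters ran from 4 to 8 with 1 library left out.

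Same-numbered samples did not deviate together (correlations 0.087, -0.0028 and -0.074 in silencing, -0.029, -0.149 and -0.037 in overexpression). A replicate block gave 4226 genes and 9 members in silencing, adding SLC7A1 and SLC6A9, lost the MYC call (adjusted p = 0.0549) and turned MUC1 to -0.62; it gave 8965 genes and 9 members in overexpression. With 28045894 counts in the shallowest silencing library, and 13806856 in the other experiment, MUC1 in LNCaP-ER and SLC6A9 in LNCaP rest on few counts.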
